A study of Mus musculus with 6 samples.

Results

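The cytosolic sulfotransferases of the mouse and Papss2, the enzyme that makes their cofactor, were described in liver RNA of Dnajb4+/+ and Dnajb4-/- mice. The group holds 10 of the 18193 genes that could be measured, namely Sult1a1, Sult1b1, Sult1c2, Sult1d1, Sult1e1, Sult2a2, Sult2b1, Sult3a1, Sult5a1 and Papss2. They were chosen by gene symbol, and the list was picked from the family with the genotype differences of these same arrays already known. Every genotype difference of these 10 genes is therefore given as a description, without a p-value. The family list left out 4 measured genes, Sult1c1, Sult2a8, Sult4a1 and Sult6b1, which are compared further on.

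By the labels, the livers came from 3 wild-type C57BL/6 mice (Dnajb4+/+) and 3 HLJ1 knockout C57BL/6 mice (Dnajb4-/-), all recorded as male and aged 6 to 8 weeks, with 1 Affymetrix mouse expression array per mouse. HLJ1 is the heat shock protein that Dnajb4 encodes, and how the knockout was made is not given in the sources used here. The values are normalized intensities on a linear scale. A probe set is the unit of the array, a bundle of short probes for a transcript. Precision is limited by there being 3 arrays per genotype, and nothing in the values shows whether the spread between them is that of mice or of repeated measurements. The intensity of a gene cannot be set against that of another gene.

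Sulfotransferases move a sulfonate group from the donor PAPS onto hormones, bile acids, drugs and phenols, which makes these compounds more soluble in water and often inactive. PAPS itself is built from sulfate and ATP by the PAPS synthases Papss1 and Papss2. In the mouse liver several sulfotransferases are set by sex through the pattern of growth hormone secretion, and Sult2a genes and Sult3a1 are known for higher levels in females than in males.

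The arrays were first compared with their labels, since several markers moved with the genotype. Dnajb4 itself, as the mean of its 3 probe sets, did not pass the test and kept 90.8% of its wild-type intensity in the arrays labelled as knockout (log2 difference -0.14, adjusted p = 0.145 from limma over all genes). Its brightest probe set gave 566 to 612 in Dnajb4+/+ and 453 to 480 in Dnajb4-/- livers (adjusted p = 0.00768 from limma over all probe sets), and the others overlapped (adjusted p = 0.57 and 0.907). The part of the gene that each reads was not analysed here, so the genotype of each array rests on its label. Xist, the RNA that silences an X chromosome in female cells, was at 364 to 402 in the wild-type arrays, which are labelled male, and at 14.3 to 17.1 in the knockout arrays. Of the Y-linked genes, Eif2s3y read 62.6 to 72.3 in the Dnajb4+/+ and 77.4 to 81.3 in the Dnajb4-/- arrays. Kdm5d (24.6 to 26.4 over all arrays, a mean of 3 probe sets) and Uty (18.9 to 26.3, a mean of 4) lay below the median of all probe sets, 31.8 to 32.5 per array. That median is of single probe sets, and a mean can hide a brighter probe set. The single probe sets of these genes were not compared. Dnajb4+/+ values of these genes were between 77.9% and 102% of what the knockout arrays averaged. All arrays are labelled male, so no female liver gives the background of these genes, and whether the dim values are Y-linked signal was not tested. Of 17 measured female-high liver genes, 16 were called lower in Dnajb4-/- livers at an adjusted p under 0.05 from limma. Of 13 male-high genes, 9 were called higher. Over all genes, 9.57% were called lower and 5.09% higher. Log2 differences were at most -0.22 in the female-high list and at least 0.0084 in the male-high list, so none went the other way. Xist and the called genes of both lists split the arrays exactly as the genotype does. Sex-biased RNA and genotype therefore cannot be told apart for any gene of the group, and leaving out an array does not separate them. The 3' over 5' probe ratio, read as a measure of RNA integrity and taken here from the normalized values, also differed. It was 1.17 ± 0.0134 and 1.45 ± 0.0265 for Gapdh and 2.65 ± 0.0485 and 3.17 ± 0.0602 for Actb in Dnajb4+/+ and Dnajb4-/- livers (SD, n = 3). The exact two-sided permutation test gave p = 0.1 for each gene, which is the lowest value possible here. Both ratios split the arrays exactly as the genotype does. Whether RNA integrity itself differed was not tested. Its part in the results below cannot be told apart from that of the genotype, and was not tested either.

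Start regions of the group are shown first for the gene with the greatest difference and for the 3 genes that lie side by side on chromosome 5, as these can be read beside the values that follow. RefSeq (GRCm38.p6) held 12 start regions for 9 of the 10 genes, Sult2a2 being the exception. Each line gives the 250 bases before a listed start, 5′ to 3′ on the strand of the gene, with motif matches in capitals.
Sult3a1, chr10:33857472-33857721, plus strand: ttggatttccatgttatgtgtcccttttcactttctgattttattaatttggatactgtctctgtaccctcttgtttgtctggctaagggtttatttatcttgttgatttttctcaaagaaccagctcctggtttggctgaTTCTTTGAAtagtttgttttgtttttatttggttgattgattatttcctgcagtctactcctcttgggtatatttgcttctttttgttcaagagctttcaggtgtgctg
Sult1b1, chr5:87538196-87538445, minus strand: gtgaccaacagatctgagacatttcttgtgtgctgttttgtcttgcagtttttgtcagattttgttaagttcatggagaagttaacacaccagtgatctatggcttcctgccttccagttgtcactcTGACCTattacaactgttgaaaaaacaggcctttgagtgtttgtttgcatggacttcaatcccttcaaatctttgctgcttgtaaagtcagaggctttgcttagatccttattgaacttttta
Sult1d1, chr5:87569007-87569256, minus strand: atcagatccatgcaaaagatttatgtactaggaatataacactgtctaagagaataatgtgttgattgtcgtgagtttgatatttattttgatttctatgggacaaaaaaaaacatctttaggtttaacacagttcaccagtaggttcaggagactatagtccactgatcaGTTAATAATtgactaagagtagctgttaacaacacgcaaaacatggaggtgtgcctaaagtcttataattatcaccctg
Sult1e1, chr5:87591612-87591861, minus strand: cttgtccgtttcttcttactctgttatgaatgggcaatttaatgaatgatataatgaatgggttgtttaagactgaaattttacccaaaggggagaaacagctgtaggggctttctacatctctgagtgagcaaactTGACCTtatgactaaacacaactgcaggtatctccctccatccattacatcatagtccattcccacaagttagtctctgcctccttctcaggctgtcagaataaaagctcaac

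The letters searched on both strands were TTCNNNGAA, bound by STAT5 and by the repressor Bcl6, the nuclear receptor half-site AGGTCA, the FoxA motif TGTTTAC, the HNF1 core GTTAATNAT and the D-box TTATGTAA of the clock output factors. The capitals of Sult3a1 are a TTCNNNGAA match that begins 109 bases before the start, a motif found in 1 of the 12 regions of the group and in 7.02% of all 32851 start regions in the table. The listed Sult3a1 start lies inside the span of the gene, so other transcripts begin upstream of it. The capitals of Sult1d1 are an HNF1 core, found in 0.737% of all regions. Those of Sult1b1 and Sult1e1 are the reverse complement of AGGTCA, which 14.0% of all regions held and 3 of the 12 regions of the group, the third being a start region of Papss2. Sult1b1 and Papss2 each have a further listed start region, and these hold no match to any of the motifs. No FoxA match (3.17% of all regions) and no D-box (0.819%) was found in these 12 windows. No printed match overlaps another. A match is a run of letters and was not shown here to be bound.

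Sult3a1, which attaches the sulfonate group to amines, was the gene with the greatest difference of all 18193 genes. Its probe set read 4497, 4495 and 4503 in the Dnajb4+/+ arrays and 34.6, 37.3 and 32.5 in the Dnajb4-/- arrays. The genotypes stood far apart and the Dnajb4+/+ arrays were nearly equal. The log2 difference, Dnajb4-/- minus Dnajb4+/+, was -7.02 (standard error 0.06), so that 0.772% of the Dnajb4+/+ intensity remained.
Sult2a2, a hydroxysteroid sulfotransferase of steroids and bile acids, read 639, 572 and 680 in the Dnajb4+/+ arrays and 11.4, 12.0 and 20.4 in the Dnajb4-/- arrays. The Dnajb4-/- values lay close to the lower quartile of all probe sets, which was 12.2 to 12.7 per array, and replicate 3 was the highest of them. The log2 difference was -5.48 (standard error 0.21), and 2.24% of the Dnajb4+/+ intensity remained. Near the background the size of such a difference is uncertain. With 16 added to each value before the logarithm, the differences were -6.48 for Sult3a1 and -4.41 for Sult2a2. Near-identical Sult2a copies lie beside Sult2a2, and Sult3a2 beside Sult3a1, so which transcripts these probe sets read is uncertain. In whole liver, fewer cells of a type and less RNA per cell cannot be told apart.

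**Figure D1:**
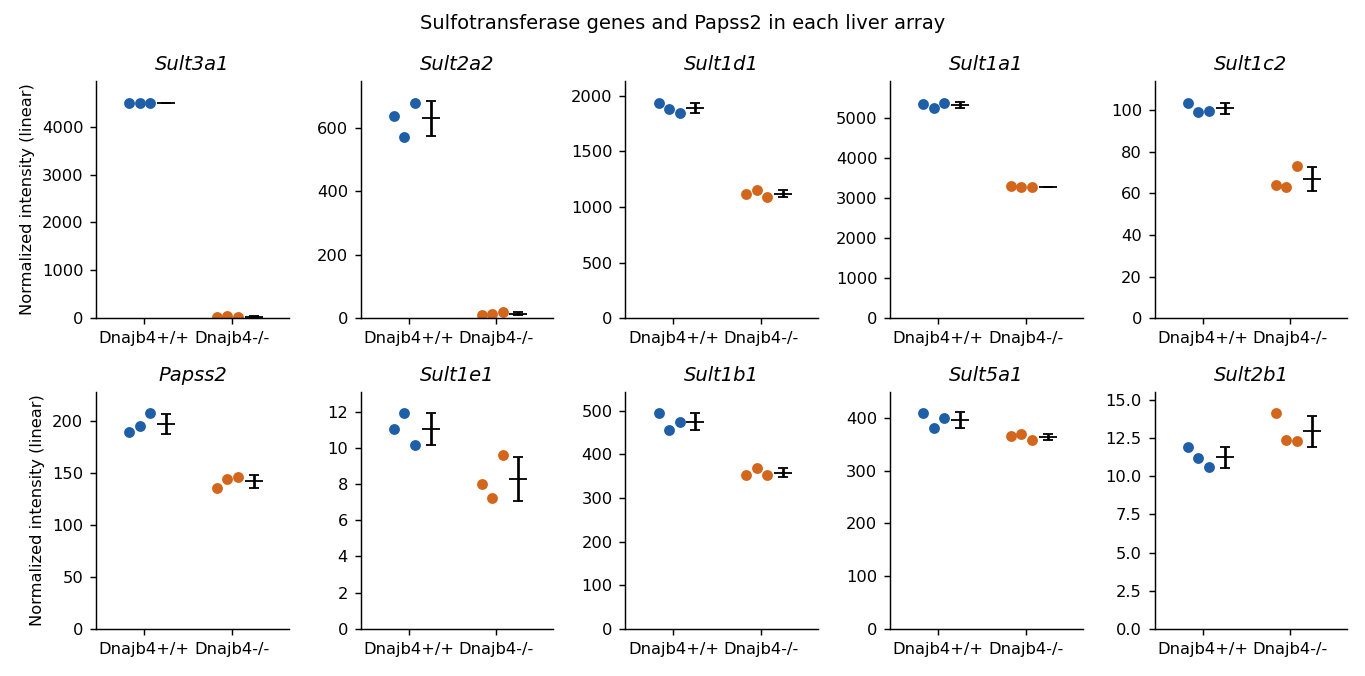
Normalized intensity (y axis, linear scale from 0, a scale of its own in each panel) of the 9 sulfotransferase genes and Papss2 in each Dnajb4+/+ (blue) and Dnajb4-/- (orange) liver array, where black marks give mean and SD per genotype (n = 3). The orange points lie below the blue points in 9 panels and above them in the panel of Sult2b1, and they are near 0 for Sult3a1 and Sult2a2.

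Sulfotransferases of the 1 family act on phenols, catecholamines, thyroid hormones and estrogens. Those in the group were lower in the Dnajb4-/- arrays by less than 2-fold, and Sult1c1, which is outside it, is described further on. Sult1a1, the main phenol sulfotransferase, read 5350, 5262 and 5391 in the Dnajb4+/+ arrays and 3295, 3277 and 3277 in the Dnajb4-/- arrays. Its log2 difference was -0.70 (standard error 0.03), which is 61.5% of the Dnajb4+/+ intensity.
Sult1d1, which acts on dopamine and other phenols, has 2 probe sets that went the same way. The brighter read 3025, 2952 and 2867 against 1766, 1724 and 1702, and the other read 1241, 1199 and 1187 against 701, 771 and 703. Both fell to nearly the same degree, by 0.77 and 0.74 on the log2 scale, and their mean gave -0.75 (standard error 0.04).
Sult1b1, which acts on thyroid hormones and phenols, read 494, 455 and 474 in the Dnajb4+/+ arrays and 352, 369 and 353 in the Dnajb4-/- arrays, a log2 difference of -0.40 (standard error 0.05). The spread between arrays was a small part of this difference. Sult1c2, a member of the 1C subfamily, read 104, 99.0 and 99.6 against 64.0, 63.1 and 73.2, a log2 difference of -0.60 (standard error 0.06). Its Dnajb4-/- replicate 3 stood nearest to the Dnajb4+/+ arrays.
Sult1e1, the estrogen sulfotransferase, was dim throughout, at 11.0, 11.9 and 10.1 in the Dnajb4+/+ arrays and 8.01, 7.23 and 9.63 in the Dnajb4-/- arrays. The arrays did not overlap, but the gap between the nearest of them was small beside the spread within each genotype. The log2 difference was -0.42 (standard error 0.11) and -0.15 with 16 added to each value. On chromosome 5 (GRCm38.p6) Sult1b1, Sult1d1 and Sult1e1 lie within 78.3 kb, the genes spanning 87513327 to 87538195, 87554650 to 87569006 and 87575968 to 87591611. Of these neighbours Sult1d1 had the greater difference, a comparison of measured values that was not tested.

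The other 2 sulfotransferases of the group stood apart from this pattern. Sult5a1 read 409, 380 and 400 in the Dnajb4+/+ arrays and 365, 369 and 358 in the Dnajb4-/- arrays. The log2 difference was only -0.12 (standard error 0.04), or 91.9% of the Dnajb4+/+ intensity. Sult2b1, which sulfonates cholesterol and pregnenolone and is best known from skin, read 11.9, 11.2 and 10.6 against 14.1, 12.4 and 12.3. It is the member of the group that was higher in the Dnajb4-/- arrays, with a log2 difference of 0.20 (standard error 0.07) and of 0.087 with 16 added to each value. Like Sult1e1 it lay below the lower quartile of all probe sets by signal.

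Papss2, which makes the sulfonate donor, was measured by 4 probe sets, and all were lower in the Dnajb4-/- arrays. The brightest read 1320, 1329 and 1328 in the Dnajb4+/+ arrays and 993, 1018 and 1004 in the Dnajb4-/- arrays, a log2 difference of -0.40 (standard error 0.04). The next read 400, 353 and 432 against 221, 234 and 237, a log2 difference of -0.77 (standard error 0.08). This second probe set carries the suffix for probes that can match several transcripts, and it gave the greatest Papss2 difference. The dimmer ones read 114, 127 and 126 against 87.2, 89.1 and 91.5, and 21.3, 24.3 and 25.6 against 17.5, 20.3 and 20.9, with log2 differences of -0.45 and -0.28. Averaged over the 4 probe sets the difference was -0.48 (standard error 0.05), which is 71.9% of the Dnajb4+/+ intensity.

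**Figure D2:**
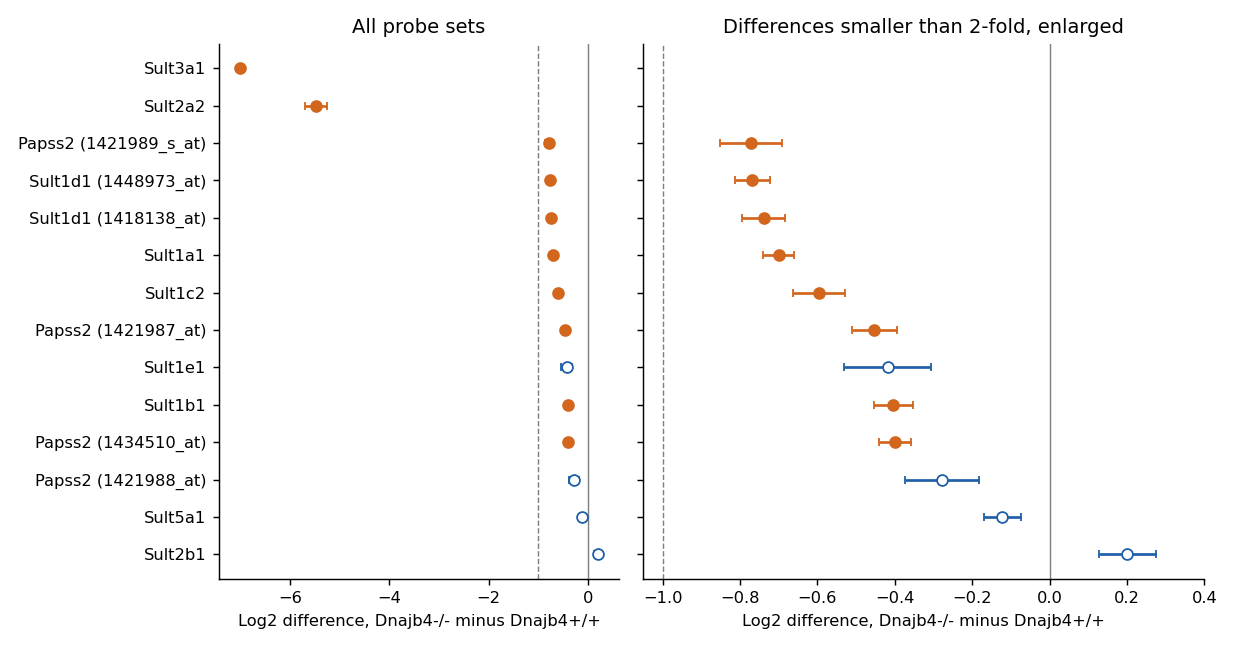
Log2 difference (x axis, Dnajb4-/- minus Dnajb4+/+) of the 14 probe sets of the group, with bars of 1 standard error from limma, on the full scale (left) and enlarged (right). Filled orange points passed an adjusted p of 0.05 over all probe sets and open blue points did not, and the dashed line marks 2-fold. 13 probe sets lie left of 0, Sult3a1 at -7.02 and Sult2a2 at -5.48 far from the rest.

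Over all 10 genes the median log2 difference was -0.54, while that of all genes was 0.0075. In limma's fit over all genes, 8 of the 10 were lower at an adjusted p under 0.05 and none was higher, where 9.57% of all genes were called lower and 5.09% higher. Since the list was picked with this comparison known, nothing is read from that count. Sult5a1 and Sult2b1 did not pass. The pass of Sult1e1 was lost with each array centred on its brighter probe sets, with a replicate block, with the methods' t-test and without each of 5 of the 6 arrays, Dnajb4-/- replicate 3 being the exception. At 2-fold, Sult3a1 and Sult2a2 were called, as were 0.319% of all genes. All Dnajb4-/- arrays lay below all Dnajb4+/+ arrays for 9 of the 10 genes, an order that 19.4% of all genes showed, and above them for Sult2b1, an order that 16.1% of all genes showed. Of the 14 probe sets, 10 were called lower and none higher, where 8.34% of all probe sets were called lower. The only probe set of Sult1e1 was not among the 10, so its call was given by the fit over genes alone. Of all called genes 34.7% were higher, and 51.7% with each array centred on its brighter probe sets. Under that centring Sult3a1 was at -6.98, Sult1a1 at -0.66 and Sult5a1 at -0.086.

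The 4 measured sulfotransferase genes outside the group did not pass the test. Sult2a8, a bile acid sulfotransferase of mouse liver, read 9108, 9216 and 8887 in the Dnajb4+/+ arrays and 8705, 8982 and 8880 in the Dnajb4-/- arrays. The genotypes overlapped, and the log2 difference was -0.034 (95% interval -0.12 to 0.054, adjusted p = 0.593 from limma), with a sign that turned when the arrays were centred on their brighter probe sets (0.0014). Sult2a8 lies on chromosome 7 at 14410686 to 14446780, 631 kb from Sult2a2 at 13733506 to 13779637. The difference between these genes was not tested.
Sult1c1, next to Sult1c2 on chromosome 17 at a distance of 115.7 kb, read 6.65 to 7.41 in the Dnajb4+/+ and 6.44 to 6.82 in the Dnajb4-/- arrays (log2 difference -0.092, 95% interval -0.22 to 0.032, adjusted p = 0.296 from limma). Sult4a1, known from brain, and Sult6b1 were at 11.1 to 13.8 and 4.94 to 5.82 over all arrays, with adjusted p = 0.851 and 0.684. These 3 genes lay near or below the lower quartile of all probe sets, where the signal limits what can be seen. Counting the whole measured family without Papss2, 7 of 13 genes (53.8%) were called lower, where 9.57% of all genes were. All 7 belong to the group picked with this comparison known, and they include Sult1e1, whose call was lost in 8 alternatives, so nothing is read from this count either. The other 8 genes of the family list, among them Sult2a1 and Sult3a2, were not analysed here.

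Genes that supply PAPS and move sulfate changed little and in both directions. Of 9 measured genes 3 rose and 2 fell at an adjusted p under 0.05, where 5.09% of all genes were called higher and 9.57% lower. Papss1, the other PAPS synthase, read 287, 280 and 287 in the Dnajb4+/+ arrays and 326, 335 and 335 in the Dnajb4-/- arrays, or 0.22 more on the log2 scale (adjusted p = 0.00864 from limma). Its sign is opposite to that of Papss2. The transporters that carry PAPS into the Golgi were lower, with log2 differences of -0.21 for Slc35b3 and -0.17 for Slc35b2 (adjusted p = 0.0129 and 0.0285). Bpnt2, which breaks down the used cofactor in the Golgi, was higher by 0.16 (adjusted p = 0.0448), and Slc26a1, a sulfate carrier of the hepatocyte membrane, did not pass (-0.16, adjusted p = 0.0603). The calls of these transporters and of Bpnt2 were lost with a replicate block. That of Slc35b2 was also lost with quantile normalization, with centring on brighter probe sets and without each array but Dnajb4-/- replicate 3. That of Bpnt2 was also lost with the methods' t-test, without probe sets that can match several transcripts and without each of the 6 arrays.

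Of 12 measured genes of sulfur amino acid oxidation, the route from cysteine to sulfate and taurine, 2 rose and 2 fell. Over all genes 5.09% were called higher and 9.57% lower. Ethe1, the persulfide dioxygenase, went from 1617 ± 38.2 up to 2208 ± 23.8 (SD, n = 3). Csad, which makes the precursor of taurine, went from 3099 ± 31.3 up to 4177 ± 120 (SD, n = 3). On the log2 scale these are 0.45 and 0.43 (adjusted p = 5.38e-04 and 7.54e-04 from limma). The thiosulfate sulfurtransferase Tst and the aspartate aminotransferase Got1 had log2 differences of -0.35 and -0.28 (adjusted p = 0.0018 and 0.00304). Suox, which makes sulfate from sulfite, did not pass (0.040, adjusted p = 0.613).

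Sulfotransferases of the Golgi, which modify proteoglycans and proteins, mostly did not pass the test. Of 31 measured, 3 rose and 1 fell, where 5.09% of all genes were called higher and 9.57% lower. Nothing is read from counts this small. Hs6st1, an enzyme of heparan sulfate, had a log2 difference of -0.35 (adjusted p = 0.00481 from limma), and Chst13, an enzyme of chondroitin sulfate, of 0.38 (adjusted p = 0.00931), a call that the methods' t-test did not give (adjusted p = 0.0508). Tpst2, which sulfates tyrosines of secreted proteins, was at 0.17 and the dim Ndst4 at 0.19 (adjusted p = 0.024 and 0.0324), and both calls were lost with a replicate block. That of Tpst2 was also lost without each array but Dnajb4+/+ replicate 3, and that of Ndst4 without each of the 6 arrays, with its brightest probe set, with 16 added, with the trend and robust variance model and with the methods' t-test. Of 13 measured sulfatases and their activators, which remove sulfate, 2 fell and 1 rose, beside the same shares of all genes. The heparan sulfatase Sulf2 had a log2 difference of -0.42 and the lysosomal Arsa of -0.32, while Arsg was at 0.36 (adjusted p = 0.00238, 0.00474 and 0.0284). The call of Arsg was lost with a replicate block, with the methods' t-test, without probe sets that can match several transcripts and when replicate 2 or 3 of either genotype was left out.

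Of 19 measured regulators of sulfotransferase genes 7 fell and 4 rose. Nr1i3, the xenobiotic receptor CAR, read 788, 784 and 845 in the Dnajb4+/+ arrays and 473, 492 and 489 in the Dnajb4-/- arrays, a log2 difference of -0.73 (adjusted p = 1.35e-04 from limma). Nr1h4, the bile acid receptor FXR, had a log2 difference of -0.53 and the pioneer factor Foxa1 of 0.50 (adjusted p = 3.76e-04 and 0.00136). Bcl6, a repressor known to be male-biased, went from 63.2 ± 3.38 up to 137 ± 1.61 (SD, n = 3; log2 difference 1.12, adjusted p = 2.62e-05). Stat5b and Ghr, which carry the growth hormone signal, did not pass (0.12 and -0.014, adjusted p = 0.111 and 0.839). Bcl6 and Cux2 also stand in the lists of sex-biased genes. Over all 6 lists 14 of 88 genes (15.9%) fell and 13 (14.8%) rose, with a median log2 difference of 0.016, where 9.57% of all genes were called lower and 5.09% higher. Without any 1 array the count that rose was 7 to 9.

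**Figure D3:**
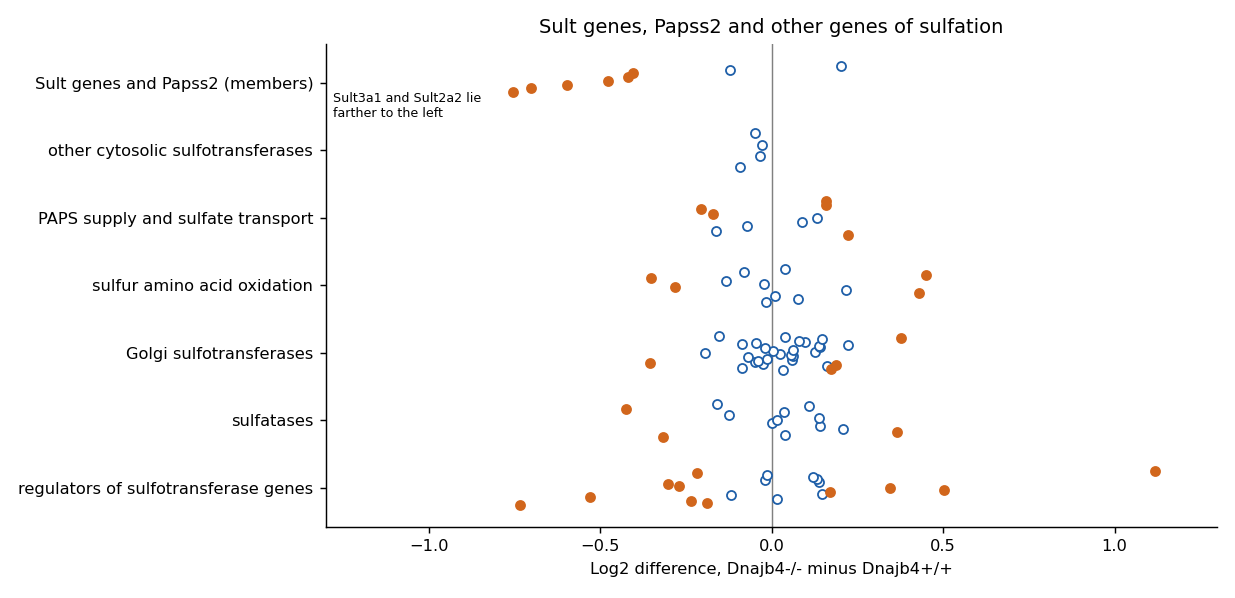
Log2 difference (x axis, Dnajb4-/- minus Dnajb4+/+) of the 10 genes of the group (top row) and of 88 other genes of sulfation in 6 lists, 1 point per gene, spread within a row for legibility. Filled orange points passed an adjusted p of 0.05 over all genes and open blue points did not. Sult3a1 at -7.02 and Sult2a2 at -5.48 lie beyond the left edge. The top row has 1 point right of 0, the 4 other cytosolic sulfotransferases lie just left of 0 without passing, and the remaining lists lie on both sides.

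The genes outside the group whose pattern over the 6 arrays was nearest to that of Sult3a1, by the root mean square difference of log2 values centred on the mean of each gene, were Cyp2b9 (0.75), Xist (1.22) and Cyp4a14 (1.36). Symbols that start with Gm and a digit or with LOC, or that hold Rik, were left out of this search. Within the group Sult2a2 was at 0.83 by the same measure, and the others were at 3.13 or more. Cyp2b9, a cytochrome P450 gene of female liver, read 1018, 932 and 1041 in the Dnajb4+/+ arrays and 19.2, 20.7 and 24.3 in the Dnajb4-/- arrays. Cyp4a14, a fatty acid hydroxylase, read 2118, 2007 and 1995 against 106, 108 and 96.4. Both Cyp2b9 and Cyp4a14 stand in the list of female-high liver genes, and Xist is the female marker given above. The likeness rests on the step between the genotypes, which these genes share.

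**Figure D4:**
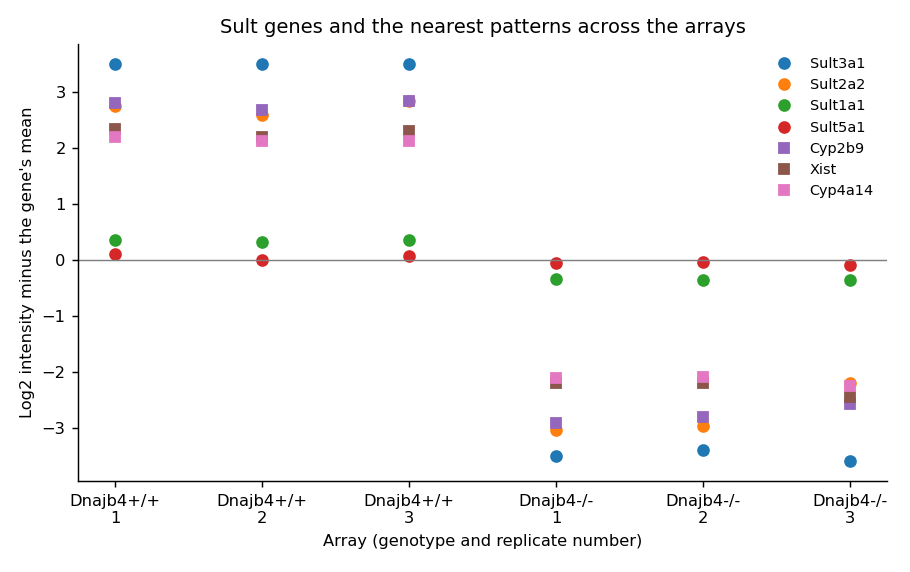
Log2 intensity minus the mean of the gene over the 6 arrays (y axis) in each array (x axis, genotype and replicate number) for 4 sulfotransferase genes (circles) and the 3 genes outside the group nearest to Sult3a1 in pattern among those searched (squares). Sult3a1 and Sult2a2 step down between the genotypes together with Cyp2b9, Xist and Cyp4a14, while Sult1a1 moves by 0.70 and Sult5a1 by 0.12.

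Other markers also moved with the genotype. Here genes that fell or rose are those called at an adjusted p under 0.05 from limma. Over all genes 9.57% were called lower and 5.09% higher. The summed intensity of the 17 female-high genes was 5449 to 5842 in the Dnajb4+/+ and 754 to 783 in the Dnajb4-/- arrays, and that of the 13 male-high genes was 58348 to 59047 and 73063 to 74404. Of 18 clock genes 12 fell and 5 rose, and their sum was 5885 to 6119 and 3345 to 3446. Such sums weigh the brighter genes of a list most and do not show genes that go the other way. Among the clock genes, Dbp read 1698 to 1740 in the Dnajb4+/+ and 198 to 215 in the Dnajb4-/- arrays. Arntl, which rose, read 40.2 to 41.8 and 92.3 to 102. Among cell type markers, 6 of 7 of Kupffer cells and macrophages fell (sums 2640 to 2741 and 2024 to 2096), 4 of 6 of endothelial cells (1521 to 1564 and 1336 to 1399), 8 of 9 of skeletal muscle (708 to 767 and 335 to 347) and 2 of 9 of hepatocytes (149205 to 149988 and 146173 to 147516). None of 6 lymphocyte markers (133 to 136 and 130 to 137) and none of 6 markers of stellate cells and fibroblasts (744 to 750 and 674 to 699) passed, and 1 of 5 cholangiocyte markers rose (132 to 148 and 151 to 157). No value is at 0 on these arrays, the lowest being 3.90. All of the sums above but that of the lymphocyte markers split the arrays as the genotype does. What such markers reflect therefore cannot be told apart from genotype in these arrays. The part of any of these markers in the sulfotransferase values was not tested.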

How the data were processed

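Liver RNA of 6 mice was measured on Affymetrix mouse expression arrays. The authors processed the raw signals in GeneSpring by GCRMA with global median centring. What was deposited is a linear-scale intensity per probe set. Versions were not given in the sources used here. Of 45101 probe sets, 64 controls and those with several gene symbols (932) or none (9211) were left out, and 34945 probe sets of 18193 genes were used. Log2 values were averaged per gene here. The authors also took a mean over probe sets, on a scale that is not stated. The test was that of limma 3.58.1 (lmFit, eBayes) in R 4.3.3, two-sided and with neither filter nor block, with Benjamini-Hochberg adjustment over all genes (or all probe sets) at 0.05. Differences are Dnajb4-/- minus Dnajb4+/+. Groups and replicate numbers came from the labels, which call the arrays biological replicates.

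The genes of the group and all lists were chosen with earlier results of these data known. The lists cover other cytosolic sulfotransferases, PAPS supply and sulfate transport, sulfur amino acid oxidation, Golgi sulfotransferases, sulfatases and regulators, beside sex-biased, clock and cell type markers. List symbols absent from the probe annotation were looked up by gene ID. Named are all genes of the group, of each pathway list up to 4 called genes with the greatest difference (or the 2 brightest), and the 3 genes outside the group nearest in pattern to the top gene. The search for these 3 left out symbols that start with Gm and a digit or with LOC, or that hold Rik. Slc26a1, Suox, Stat5b, Ghr, Sult1c1, Sult6b1, Sult2a1, Sult3a2, Dbp and Arntl were named outside that rule, for their role and with values seen. The procedure was tested on simulated data. Start regions came from RefSeq for GRCm38.p6, and plots from matplotlib 3.10.9 (python 3.11.15). Alternatives for the normalization, centring, dim genes, gene-level value, offset of 16, variance model, test, block and each left-out array were run. For the sex-biased lists they were added after seeing the data.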

Additional observations from a re-analysis of the deposited data

How the results depend on the processing

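Across the alternatives, the number of genes of the group called lower was 7 to 9 (8 in the report) and none was called higher, and 10 to 12 of the probe sets were called lower. No log2 difference of the 10 genes changed sign in any alternative run. Sult5a1 passed in 3 of them, with dim genes left out, with 16 added and with the trend and robust variance model, and Sult1e1 lost its call in 8. Sult3a1 ranged from -7.07 to -6.48 and Sult2a2 from -5.75 to -4.41.

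For the other genes of sulfation, 13 rose in the report. This count was 20 with arrays centred on their brighter probe sets, 8 with the methods' t-test, and 7 to 9 when each array was left out. The count that fell stayed between 10 and 17. Centring on brighter probe sets raised the median of all genes from 0.0075 to 0.043 and turned the sign of Sult2a8 (0.0014) and Sult4a1 (0.0071), and Sult4a1 ranged from -0.12 to 0.034 when each array was left out. This centring subtracts a single value per array, so it moved the difference of every gene by the same amount. Sult2a8 and Sult4a1, both near 0, changed sign by that shift. Why the brighter probe sets differ between the arrays was not tested.

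Replicate numbers did not pair the arrays, as the deviations of same-numbered arrays correlated across genes at -0.021, -0.14 and 0.0091. With the replicate number as a block, 7 genes of the group were lower, 10 pathway genes fell and 7 rose, and 1024 of all genes were lower and 505 higher (1741 and 926 without it). With each array left out, 1036 to 1352 of all genes were lower and 516 to 657 higher. The methods' t-test at its unadjusted threshold gave 9 genes of the group lower and none higher, 18 lower and 23 higher pathway genes, and 2854 lower and 2062 higher genes in all, and after Benjamini-Hochberg adjustment 7 and none, 12 and 8, and 1343 and 695. Dim genes (Sult1e1, Sult2b1, Sult1c1, Sult4a1 and Sult6b1) and the Dnajb4-/- level of Sult2a2 are limited by signal over background.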
